A study of Mus musculus with 13 samples.

Results

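Astrocytes clear glutamate and GABA from the synaptic space, convert glutamate to glutamine and share ions and small molecules through gap junctions. The genes described here are Glul, Slc1a2, Slc1a3, Slc7a10, Slc6a11, Aldh1l1, Gja1, Gjb6 and Cldn10, 9 genes of the 20971 in the deposited table, taken by their symbols from transporters, connexins and enzymes of astrocytes. Slc1a2 and Slc1a3 encode the glutamate transporters of astrocytes, and Glul encodes glutamine synthetase, which turns the glutamate taken up into glutamine that neurons use again. Gja1 and Gjb6 encode the connexins of astrocyte gap junctions. In the cortex astrocytes also respond to amyloid plaques, and these genes serve the transport and metabolic side of the cell rather than the filament and secreted genes of the reactive state.

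RNA was sequenced from the cortex of C57BL/6 mice aged 6 months, in 7 APPPS1;Apoe-/- libraries and 6 APPPS1 libraries. Both groups are labelled as carrying the APPPS1-21 transgenes, mutant human forms of amyloid precursor protein and presenilin driven by the neuronal Thy1 promoter, and no group without them was analysed here. Mice labelled APPPS1;Apoe-/- also lack the gene for apolipoprotein E, the main lipid carrier of the brain, in every cell. The comparison asks how the astrocyte genes differ in amyloid-depositing cortex without Apoe. The series' design counts 1 mouse for each library, and the labels give neither litter nor batch. Values are RPKM, read numbers scaled to gene length and to the mapped reads of the library, as deposited. Differences are of log2(RPKM + 0.5), APPPS1;Apoe-/- minus APPPS1, a scale that understates the change of weak genes. A gene was called when its adjusted p from limma, by the Benjamini-Hochberg method over the 13343 genes tested, was under 0.05.

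Apoe lay between 4.01 and 6.35 RPKM in APPPS1;Apoe-/- libraries and between 462.6 and 670.4 RPKM in APPPS1 libraries, so the Apoe part of the label held for 13 of 13 libraries. Depth moved with genotype: APPPS1;Apoe-/- libraries had 18455493 to 34538031 alignments and APPPS1 libraries had 28402328 to 77005806. The libraries labelled APPPS1;Apoe-/- replicates 2 and 5 stood apart from the other 11. They had 105.6 and 115.6 RPKM of App against 175.9 to 216.5 in the others, and 52.2 to 56.9 RPKM of Thy1 against 172.2 to 245.4. These values go against the transgene part of their label, and results for the members are therefore given with and without this pair, called the low-App pair below. Summed RPKM of 12 other astrocyte markers, none of them at 0 in any library, ran from 1183 to 1351 in APPPS1;Apoe-/- libraries and from 1145 to 1273 in APPPS1 libraries, with 1 of the 12 called higher and 2 lower. The sums of 11 microglial markers did not overlap, at 284.2 to 587.8 RPKM in APPPS1;Apoe-/- libraries against 752.7 to 888.2 RPKM in APPPS1 libraries, and 7 of the 11 were called lower. Oligodendrocyte marker sums were 974.4 to 1543 RPKM in APPPS1;Apoe-/- libraries against 862.7 to 1210 RPKM in APPPS1 libraries, with 4 of 9 called higher. Neuronal marker sums were 3562 to 4406 RPKM in APPPS1;Apoe-/- libraries against 3576 to 4155 RPKM in APPPS1 libraries, with 1 of 12 called lower. Sums of 8 striatal markers were 63.65 to 117.6 RPKM in APPPS1;Apoe-/- libraries (median 88.94) and 52.5 to 120.5 RPKM in APPPS1 libraries (median 60.86), with 1 called higher. Of the remaining markers, for oligodendrocyte precursors, endothelial cells and pericytes, ependyma and choroid plexus, and cerebellar and deep regions, 1 ependymal or choroid gene was called higher. In bulk cortex fewer cells of a type and less RNA per cell cannot be told apart, and the part of cell makeup in the results below was not tested.

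The proximal promoters of Glul and Slc7a10 are shown because these were the only members whose libraries did not overlap between the genotypes, in opposite directions. Each runs from 250 bases before to 50 bases after the RefSeq start on GRCm38.p6, 5′ to 3′ on the plus strand, with matches to the GC box GGGCGG on either strand in capitals. The Glul window is chr1:153899679-153899978 and the Slc7a10 window is chr7:35186135-35186434.
Glul: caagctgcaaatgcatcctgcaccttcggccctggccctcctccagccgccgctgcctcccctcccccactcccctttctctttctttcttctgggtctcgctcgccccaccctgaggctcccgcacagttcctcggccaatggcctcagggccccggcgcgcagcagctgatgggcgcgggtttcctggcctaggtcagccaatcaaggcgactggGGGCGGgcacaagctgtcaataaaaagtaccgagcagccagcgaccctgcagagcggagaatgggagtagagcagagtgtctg
Slc7a10: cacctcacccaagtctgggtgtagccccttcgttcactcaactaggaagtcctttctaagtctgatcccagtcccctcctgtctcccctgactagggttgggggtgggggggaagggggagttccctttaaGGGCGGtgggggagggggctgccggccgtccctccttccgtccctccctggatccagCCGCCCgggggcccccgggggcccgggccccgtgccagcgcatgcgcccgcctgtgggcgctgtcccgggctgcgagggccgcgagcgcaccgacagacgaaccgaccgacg
The Glul window held 1 GC box and the Slc7a10 window 2, of which the second reads CCGCCC because it lies on the opposite strand. A GC box stands in 35.7% of the 32851 RefSeq promoter windows of this length. The TATA box TATAAA, present in 13.6% of windows, was in neither of these sequences. Both motifs were searched on both strands, and an absent match concerns this window only. GC content was 64.3% for Glul and 70.7% for Slc7a10, with a median of 52.7% over all windows. Among the other members, Slc6a11 had 4 GC boxes, Aldh1l1 1, and Slc1a3 1 together with the only TATA box. Cldn10 has a pair of windows with 0 and 3 GC boxes, and Slc1a2, Gja1 and Gjb6 had neither motif.

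Of the 9 genes, all of which passed the filter on low values, 3 were higher in APPPS1;Apoe-/- cortex (Glul, Gjb6 and Cldn10), 1 was lower (Slc7a10) and 5 did not pass the test. Over all tested genes 8.23% were called, 3.48% higher and 4.74% lower. The median log2 difference of the members was 0.14 and that of all tested genes was -0.01. Groups did not overlap for 2 members, 1 in each direction, against 3.72% of all tested genes (1.54% higher and 2.17% lower). Without the 2 low-App libraries Glul, Cldn10 and Slc7a10 were called (5.07% of all tested genes), with depth as a covariate Slc7a10 alone (1.51%), and with both changes again Slc7a10 alone (2.11%). In the 5 female libraries of each genotype, told by Xist and Ddx3y, Gjb6, Cldn10 and Slc7a10 were called (3.59%). The changed members were spread over the functions of the group, with 1 enzyme, 1 amino acid exchanger, 1 connexin and 1 junction protein.

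**Figure D1:**
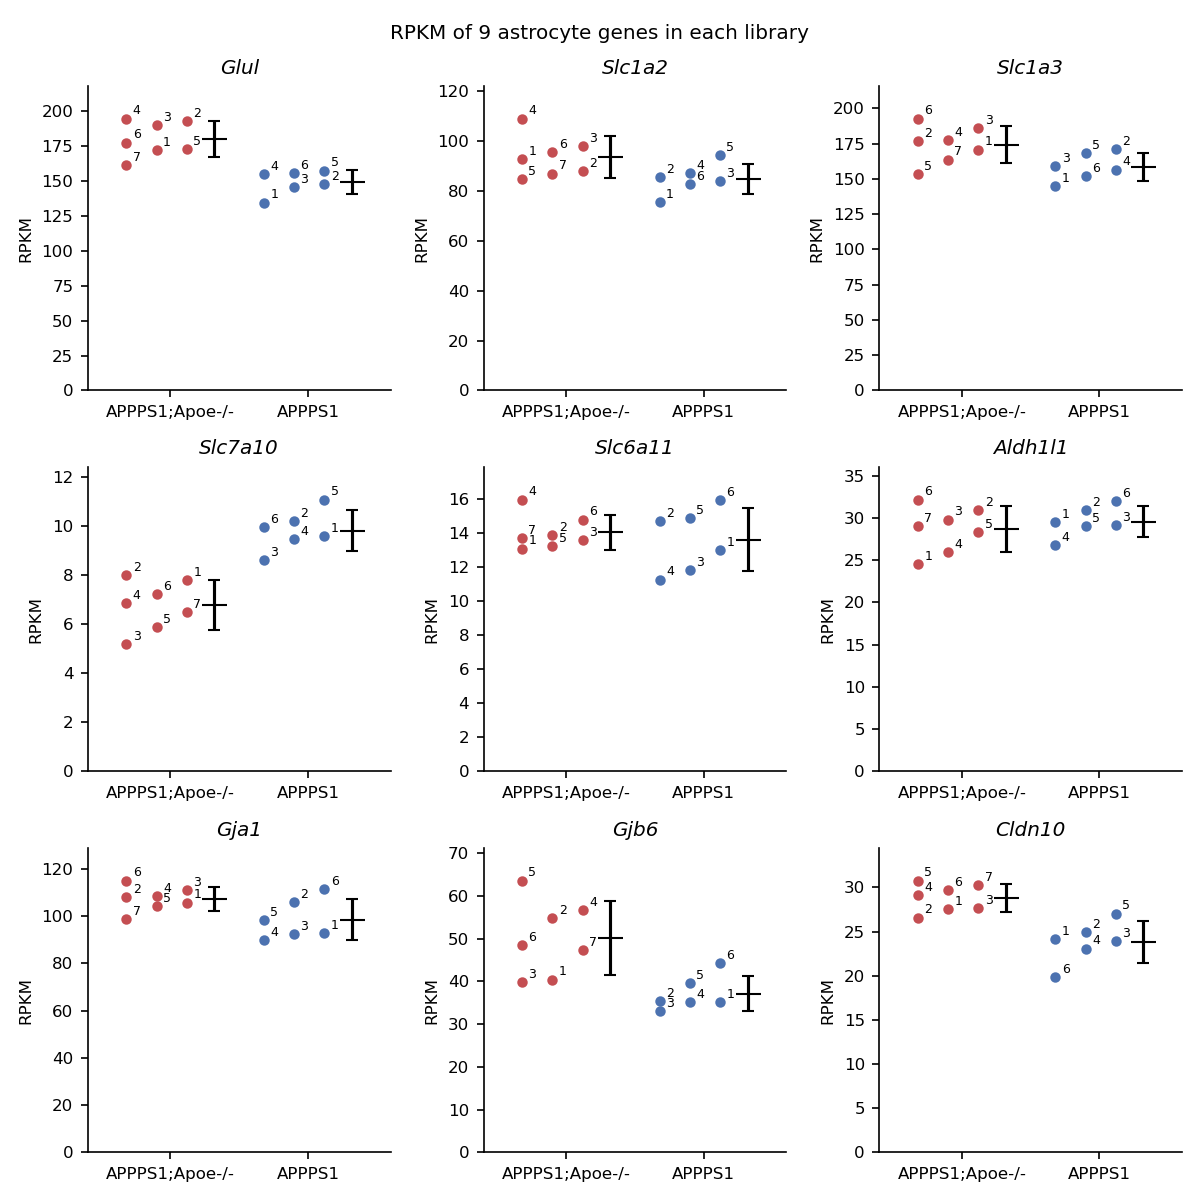
RPKM of each gene (vertical axis, from 0) in the 7 APPPS1;Apoe-/- libraries (red, left) and the 6 APPPS1 libraries (blue, right), numbered by replicate and spread sideways only for legibility, with the mean and SD beside each group. All red Glul points lie above the blue ones and all red Slc7a10 points lie below them, while the ranges of Aldh1l1 and Slc6a11 overlap.

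Glul, the gene of glutamine synthetase, rose without overlap between the groups. It (chr1:153899944-153909723, plus strand, mm10) had 171.9, 193.0, 189.9, 194.6, 172.5, 177.5 and 161.2 RPKM in APPPS1;Apoe-/- replicates 1 to 7. It had 134.6, 147.9, 145.9, 154.7, 157.4 and 155.5 RPKM in APPPS1 replicates 1 to 6. The lowest library without Apoe, replicate 7, was still above the highest APPPS1 library, replicate 5. Glul averaged 180.1 ± 12.7 RPKM in APPPS1;Apoe-/- cortex (SD, n = 7) and 149.3 ± 8.53 RPKM in APPPS1 cortex (SD, n = 6), 20.6% higher. The log2 difference was 0.27 (SE 0.06, 95% interval 0.15 to 0.38, limma adjusted p = 0.00733). The call stood when any 1 library was left out, with adjusted p between 0.00531 and 0.0192. Without replicates 2 and 5, the libraries with low App, the difference was 0.26 (limma adjusted p = 0.0202). With depth as a covariate, as log2 alignments, the difference was 0.27, but the limma adjusted p was 0.0833. An exon of Glul overlaps one of Teddm2 on the opposite strand and the microRNA gene Mir8114, and strand use in the counting is not given in the sources used here.

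The glutamate transporters did not pass the test, although both means were higher without Apoe. Slc1a2 (chr2:102658659-102790784, plus strand), the main glutamate transporter of forebrain astrocytes, ran from 84.67 to 109.1 RPKM with a median of 92.97 in APPPS1;Apoe-/- libraries. It ran from 75.47 to 94.41 RPKM with a median of 84.82 in APPPS1 libraries. In 3 of 7 libraries without Apoe Slc1a2 exceeded the highest APPPS1 library, and the others overlapped. Its log2 difference was 0.14 (SE 0.06, 95% interval 0.01 to 0.27, limma adjusted p = 0.179). Slc1a3 (chr15:8634124-8710764, minus strand), the second astrocyte glutamate transporter, ran from 153.2 to 192.7 RPKM with a median of 176.5 in APPPS1;Apoe-/- libraries. In APPPS1 libraries it ran from 145.1 to 170.8 RPKM with a median of 157.7. The ranges overlapped, with 4 of 7 APPPS1;Apoe-/- libraries above every APPPS1 library. The log2 difference of Slc1a3 was 0.14 (SE 0.06, 95% interval 0.01 to 0.26, limma adjusted p = 0.157). Without the low-App pair the log2 difference was 0.18 for Slc1a2 (limma adjusted p = 0.119) and 0.17 for Slc1a3 (0.109). The ratio of the 2 transporters differed by less than the spread between libraries, as Slc1a2 stood at 0.538 ± 0.040 times Slc1a3 in APPPS1;Apoe-/- cortex (SD, n = 7) and at 0.536 ± 0.023 times in APPPS1 cortex (SD, n = 6).

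Slc7a10 was the one member that fell. It encodes an exchanger of small neutral amino acids, among them D-serine and glycine, and lies on the plus strand at chr7:35186385-35201114. It had 7.80, 8.01, 5.18, 6.88, 5.87, 7.24 and 6.49 RPKM in APPPS1;Apoe-/- replicates 1 to 7. It had 9.59, 10.21, 8.61, 9.46, 11.08, 9.95 RPKM in APPPS1 replicates 1 to 6. Every APPPS1;Apoe-/- library was below every APPPS1 library, the nearest being APPPS1;Apoe-/- replicate 2 and APPPS1 replicate 3. The gene averaged 6.78 ± 1.02 RPKM in APPPS1;Apoe-/- cortex (SD, n = 7) and 9.82 ± 0.82 RPKM in APPPS1 cortex (SD, n = 6). The log2 difference was -0.51 (SE 0.09, 95% interval -0.70 to -0.33, limma adjusted p = 0.00285). Of the members, Slc7a10 alone was called under every setting tried. The difference was -0.52 without the 2 low-App libraries (limma adjusted p = 0.00379) and -0.59 with alignments as a covariate (limma adjusted p = 0.0187). Slc7a10 stood at 0.0378 ± 0.0060 times Glul in APPPS1;Apoe-/- cortex (SD, n = 7) and at 0.0658 ± 0.0051 times in APPPS1 cortex (SD, n = 6).

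Slc7a10 lies 15.5 Mb from Apoe (chr7:19696109-19699188, minus strand), on the chromosome that carries the deleted allele. Among tested genes up to 5 Mb from Apoe 28.9% of 76 were called, from 5 to 10 Mb 17.9% of 106, and from 10 to 20 Mb, the class that holds Slc7a10, 20.4% of 147. Between 20 and 30 Mb the share was 13.8% of 109 and between 30 and 60 Mb it was 8.0% of 75. The share was 11% of the 456 genes farther away and 7.72% of the 12373 tested genes not placed on chromosome 7. Each class takes both sides of Apoe together, and that of 10 to 20 Mb counts Slc7a10 itself. Calls were more frequent in this class than over genes not on chromosome 7, shares that are given as a description without a test. Loss of Apoe and any other difference inherited with the deleted allele on chromosome 7 cannot be told apart with these groups.

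Within 2 Mb of Slc7a10, 21 other genes were tested, 2 were called higher and 3 lower (23.8% called), and 4 had groups that did not overlap. Nudt19, a hydrolase gene 0.358 Mb away, fell to 13.1 ± 0.97 RPKM in APPPS1;Apoe-/- cortex (SD, n = 7) against 37.1 ± 1.99 RPKM in APPPS1 cortex (SD, n = 6), a log2 difference of -1.47 (limma adjusted p = 6.46e-11). Gpatch1 (-0.30, limma adjusted p = 0.00246) and Pdcd5 (-0.20, 0.0276) were also lower, while Rhpn2 (0.33, 0.0087) and Pepd (0.18, 0.0391) were higher. The Pepd call was lost in 9 of the 13 fits without 1 library and the Pdcd5 call in 6. The median log2 difference of the 21 was 0.01, so the neighbours moved in both directions. The 3′ neighbour Lrp3 overlaps an exon of Slc7a10 on the opposite strand and did not pass the test. Lrp3 averaged 2.77 ± 0.35 RPKM in APPPS1;Apoe-/- cortex (SD, n = 7) and 2.93 ± 0.31 RPKM in APPPS1 cortex (SD, n = 6), a log2 difference of -0.07 (limma adjusted p = 0.617). With alignments as a covariate, Nudt19 alone of the 21 was called (limma adjusted p = 1.96e-08).

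**Figure D2:**
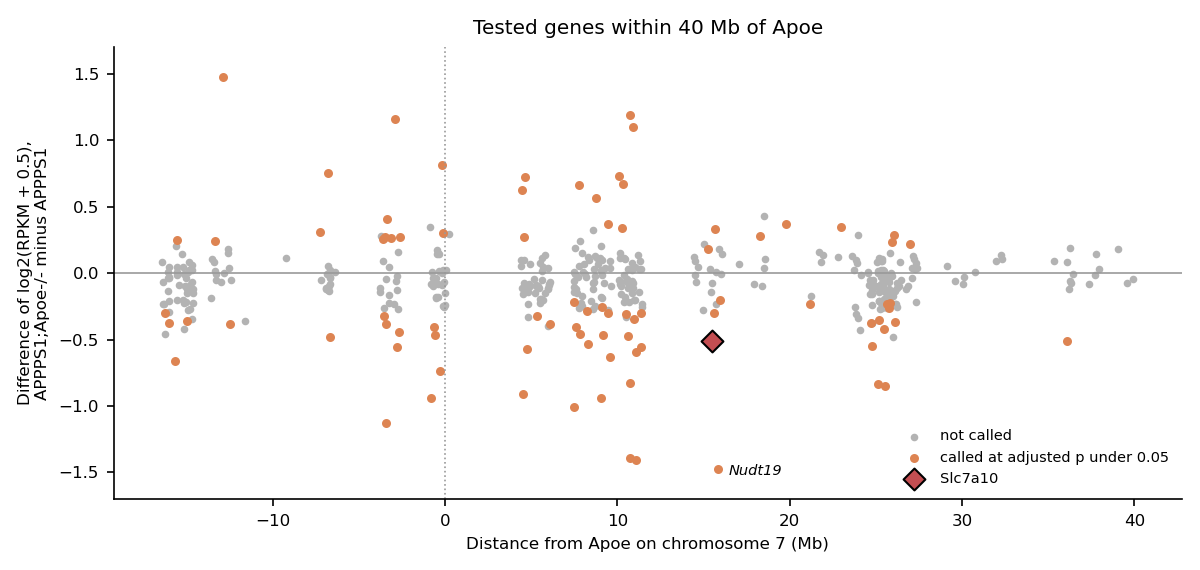
Log2 difference, APPPS1;Apoe-/- minus APPPS1 (vertical axis), of tested genes within 40 Mb of Apoe, by distance from Apoe along chromosome 7 in Mb (horizontal axis, dotted line at Apoe, which is not drawn). Orange points were called at an adjusted p under 0.05, and Slc7a10 (red diamond) lies at 15.5 Mb with a difference of -0.51, close to the lower Nudt19.

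The remaining transporter and the folate enzyme stayed within the spread of the libraries. Slc6a11 (chr6:114131241-114249952, plus strand), a GABA transporter of astrocytes, ran from 13.09 to 15.97 RPKM with a median of 13.69 in APPPS1;Apoe-/- libraries. It ran from 11.28 to 15.95 RPKM with a median of 13.85 in APPPS1 libraries. The APPPS1;Apoe-/- range lay almost wholly inside the APPPS1 range, while APPPS1 replicates 1, 3 and 4 were below every APPPS1;Apoe-/- library. The log2 difference was 0.05 (95% interval -0.11 to 0.21, limma adjusted p = 0.734). Aldh1l1 (chr6:90486427-90600203, plus strand), a folate-metabolising dehydrogenase widely used to mark astrocytes, ran from 24.53 to 32.17 RPKM with a median of 29.06 in APPPS1;Apoe-/- libraries. It ran from 26.77 to 32.01 RPKM with a median of 29.34 in APPPS1 libraries. The log2 difference of Aldh1l1 was -0.05 (95% interval -0.18 to 0.09, limma adjusted p = 0.695). These intervals bound the differences rather than showing equal levels. Without the low-App pair the log2 difference was 0.07 for Slc6a11 (limma adjusted p = 0.707) and -0.07 for Aldh1l1 (0.631).

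The connexins differed from each other in their spread. Gja1 (chr10:56377330-56402513, plus strand), the most abundant astrocyte connexin, ran from 98.72 to 115.1 RPKM with a median of 108.1 in APPPS1;Apoe-/- libraries. It ran from 89.78 to 111.5 RPKM with a median of 95.70 in APPPS1 libraries. All 7 APPPS1;Apoe-/- libraries were above the APPPS1 mean of Gja1, but only 1 was above the highest APPPS1 library. The log2 difference was 0.13 (95% interval 0.01 to 0.24, limma adjusted p = 0.173). It was 0.13 without the low-App pair (limma adjusted p = 0.244). Gjb6 (chr14:57123303-57133611, minus strand), the other main astrocyte connexin, had 40.41, 54.87, 39.82, 56.70, 63.58, 48.44 and 47.24 RPKM in APPPS1;Apoe-/- replicates 1 to 7. It had 35.17, 35.48, 32.99, 35.17, 39.67 and 44.33 RPKM in APPPS1 replicates 1 to 6. Replicates 1 and 3 of the APPPS1;Apoe-/- group fell inside the APPPS1 range and the other 5 were above it. Gjb6 averaged 50.2 ± 8.74 RPKM in APPPS1;Apoe-/- cortex (SD, n = 7) and 37.1 ± 4.14 RPKM in APPPS1 cortex (SD, n = 6), 35.1% higher, with a log2 difference of 0.42 (SE 0.10, 95% interval 0.20 to 0.63, limma adjusted p = 0.0203).

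The highest Gjb6 value came from APPPS1;Apoe-/- replicate 5, which had the fewest alignments of all libraries and was one of the pair with low App. That library also had the highest summed ependymal and choroid plexus markers, 68.28 RPKM, against 7.823 to 26.52 in the other APPPS1;Apoe-/- libraries and 5.425 to 33.84 in APPPS1 libraries, and the part of this in the Gjb6 value was not tested. Without the low-App pair the log2 difference was 0.32 (limma adjusted p = 0.0692), with alignments as a covariate it was 0.26 (0.281), and without a filter on low values it was 0.42 (0.054), so the call of Gjb6 was lost under each. Gjb6 stood at 0.469 ± 0.088 times Gja1 in APPPS1;Apoe-/- cortex, with a range of 0.359 to 0.61 over 7 libraries. In APPPS1 cortex it stood at 0.377 ± 0.026 times, with a range of 0.335 to 0.403 over 6 libraries. The ratio overlapped between the groups and had the wider range in the libraries without Apoe.

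Cldn10 (chr14:118787908-118875489, plus strand), a claudin of tight junctions whose transcript marks astrocytes in brain, had 27.53, 26.59, 27.69, 29.12, 30.77, 29.69 and 30.29 RPKM in APPPS1;Apoe-/- replicates 1 to 7. It had 24.11, 24.92, 23.88, 23.07, 27.04 and 19.81 RPKM in APPPS1 replicates 1 to 6. APPPS1 replicate 5 was above APPPS1;Apoe-/- replicate 2, and the groups were otherwise separate. Cldn10 averaged 28.8 ± 1.57 RPKM in APPPS1;Apoe-/- cortex (SD, n = 7) and 23.8 ± 2.38 RPKM in APPPS1 cortex (SD, n = 6), 21.0% higher. The log2 difference was 0.27 (SE 0.06, 95% interval 0.14 to 0.41, limma adjusted p = 0.0133). It was 0.28 without the 2 low-App libraries (limma adjusted p = 0.0282) and 0.25 with alignments as a covariate (0.128).

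**Figure D3:**
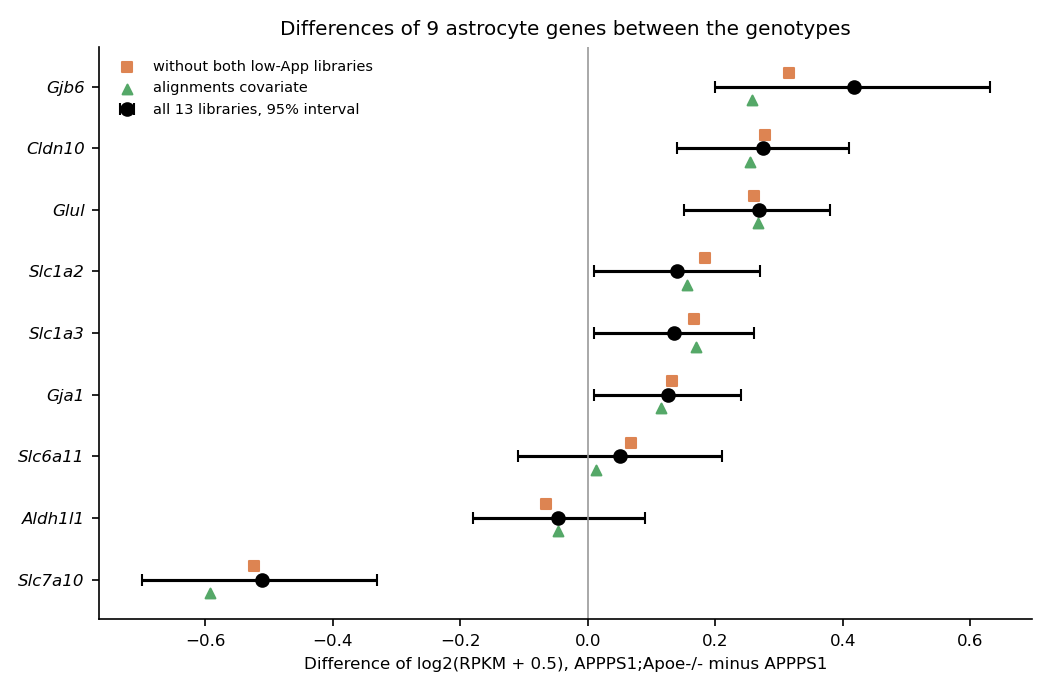
Log2 difference, APPPS1;Apoe-/- minus APPPS1 (horizontal axis), of each of the 9 genes (vertical axis) with its 95% interval in all 13 libraries (black), without the 2 low-App libraries (orange squares) and with alignments as a covariate (green triangles). Glul, Cldn10 and Slc7a10 keep their size under both, whereas Gjb6 is at 0.42, 0.32 and 0.26.

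Set per length, the genes spanned a wide range of levels in the same tissue. In APPPS1;Apoe-/- cortex the order of mean RPKM was Glul (180.1), Slc1a3 (174.3), Gja1 (107.3), Slc1a2 (93.7), Gjb6 (50.2), Cldn10 (28.8), Aldh1l1 (28.7), Slc6a11 (14.04) and Slc7a10 (6.78). In APPPS1 cortex it was Slc1a3 (158.5), Glul (149.3), Gja1 (98.5), Slc1a2 (84.9), Gjb6 (37.1), Aldh1l1 (29.6), Cldn10 (23.8), Slc6a11 (13.6) and Slc7a10 (9.82). Neighbours with overlapping ranges in both groups were Glul with Slc1a3, Gja1 with Slc1a2, and Cldn10 with Aldh1l1. Within a library Glul stood above Slc1a3 in 5 of 7 APPPS1;Apoe-/- libraries and in 1 of 6 APPPS1 libraries. Cldn10 stood above Aldh1l1 in 4 of 7 APPPS1;Apoe-/- libraries and in 0 of 6 APPPS1 libraries. The sum of the 9 genes was 637.4 to 723.9 RPKM in APPPS1;Apoe-/- libraries and 559.4 to 640.3 RPKM in APPPS1 libraries, ranges that just overlapped.

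The reactive astrocyte gene Gfap, which encodes the intermediate filament of astrocytes, moved against Glul. Gfap averaged 126.5 ± 53.3 RPKM in APPPS1;Apoe-/- cortex (SD, n = 7) and 271.3 ± 23.2 RPKM in APPPS1 cortex (SD, n = 6), a log2 difference of -1.25 (limma adjusted p = 0.0108). The Gfap difference was -0.79 without the low-App pair (limma adjusted p = 2.33e-05). Glul therefore stood at 0.99 to 3.73 times Gfap in APPPS1;Apoe-/- libraries and at 0.497 to 0.61 times in APPPS1 libraries. The highest ratios, 3.73 and 3.44, were those of the low-App pair, whose Gfap was 51.7 and 50.1 RPKM, and in the other 5 the ratio was 0.99 to 1.30. The 2 ranges did not overlap with or without that pair, which follows from the single genes, as neither Glul nor Gfap overlapped between the groups.

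Genes whose log2 values followed each called member most closely over the 13 libraries, after each group mean was subtracted, were ranked by Pearson's r as a description. For Glul they were Tsc2 (0.882), Mbd5 (0.875) and Fgfr3 (0.874), and for Slc7a10 they included Gcn1l1 (0.886) and Chd5 (0.879). For Gjb6 they were Sdc4 (0.937), Smox (0.930) and Sult1a1 (0.926), and for Cldn10 they were Dusp15 (0.841), Vgll4 (0.837) and Slc12a9 (0.825). The libraries share depth and dissection as well as genotype, and such values are the top of 13343 genes. Of these 11 genes Sult1a1 alone was called between the genotypes, at 12.5 RPKM in APPPS1;Apoe-/- cortex and 6.26 RPKM in APPPS1 cortex (log2 difference 0.92, limma adjusted p = 0.00829). Sult1a1 lies 107.0 Mb from Apoe on chromosome 7.

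The pathways around the members and the state of astrocytes were read from 8 lists that do not hold the members. Of their 167 tested genes 33 were called (19.8%), 15 higher and 18 lower, against 8.23% of all tested genes. The calls were uneven, at 61.1% of the reactive astrocyte list and 26.3% of the astrocyte identity list. In the other lists, those of pathways, 0 to 16.7% were called. With each library centred on its median the split over all lists was 19 higher and 15 lower. Without the low-App pair 20 list genes were called (5.07% of all tested genes), and with depth as a covariate only Mthfd2, Fxyd1 and Serpina3n were (1.51%). The lists were drawn up with earlier results of these data known, and no list was tested as a set.

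In glutamate and glutamine handling outside the members, 1 gene was higher and 1 lower of 20 tested, with a median log2 difference of 0.08. At an unadjusted limma p under 0.05 it was 8 higher and 2 lower. Slc38a1, a glutamine transporter, averaged 14.2 ± 0.85 RPKM in APPPS1;Apoe-/- cortex (SD, n = 7) and 12.7 ± 0.27 RPKM in APPPS1 cortex (SD, n = 6), a log2 difference of 0.16 (limma adjusted p = 0.0417). Slc17a7, the vesicular glutamate transporter of neurons, lies 25.5 Mb from Apoe on chromosome 7. It averaged 35.6 ± 6.17 RPKM in APPPS1;Apoe-/- cortex (SD, n = 7) and 47.7 ± 6.65 RPKM in APPPS1 cortex (SD, n = 6), a log2 difference of -0.42 (limma adjusted p = 0.0245). Without the low-App pair the Slc17a7 difference was -0.36 (limma adjusted p = 0.0863) and that of Slc38a1 was 0.16 (0.0917), so both calls were lost. The Slc38a1 call held only without APPPS1;Apoe-/- replicate 4 or 7 among the 13 fits that left out 1 library, and the Slc17a7 call was lost without APPPS1 replicate 1, 2 or 6. Got1, an aspartate aminotransferase and the most abundant gene of the list, averaged 276.7 RPKM in APPPS1;Apoe-/- cortex and 245.3 RPKM in APPPS1 cortex (0.17, limma adjusted p = 0.116). Got1 was called under quantile normalization (limma adjusted p = 0.0325) and without APPPS1;Apoe-/- replicate 4 (0.023). In all, 18 of the 20 genes did not pass the test.

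In GABA, glycine and serine transport and metabolism, the substrates of Slc6a11 and Slc7a10, 2 of 20 tested genes were higher and 0 lower by limma (3 and 0 at an unadjusted p under 0.05), with a median log2 difference of 0.04. Both belong to serine synthesis, while Phgdh of the same pathway, named after its value was seen, did not pass the test (0.17, limma adjusted p = 0.16). Psph, the phosphatase of its last step, averaged 21.2 ± 0.83 RPKM in APPPS1;Apoe-/- cortex (SD, n = 7) and 18.3 ± 0.62 RPKM in APPPS1 cortex (SD, n = 6), a log2 difference of 0.21 (limma adjusted p = 0.00703). Psat1, the aminotransferase before it, averaged 53.4 ± 5.66 RPKM in APPPS1;Apoe-/- cortex (SD, n = 7) and 44.4 ± 1.92 RPKM in APPPS1 cortex (SD, n = 6), a log2 difference of 0.26 (limma adjusted p = 0.0194). For both genes the groups did not overlap. The most abundant gene of the list, Gad1, which makes GABA in neurons, averaged 91.3 RPKM in APPPS1;Apoe-/- cortex and 89.4 RPKM in APPPS1 cortex (0.04, limma adjusted p = 0.839).

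Among 19 other solute carriers of astrocytes, 1 was higher and 2 were lower (median log2 difference -0.03). Slc2a1, a glucose transporter of astrocytes and brain endothelium, averaged 44.7 ± 5.32 RPKM in APPPS1;Apoe-/- cortex (SD, n = 7) and 31.5 ± 4.72 RPKM in APPPS1 cortex (SD, n = 6), a log2 difference of 0.50 (limma adjusted p = 0.00378). Slc14a1, a urea transporter, averaged 5.08 ± 1.38 RPKM in APPPS1;Apoe-/- cortex (SD, n = 7) and 8.60 ± 0.54 RPKM in APPPS1 cortex (SD, n = 6), a log2 difference of -0.75 (limma adjusted p = 0.00449). Slc16a1, a monocarboxylate transporter, averaged 2.88 ± 0.28 RPKM in APPPS1;Apoe-/- cortex (SD, n = 7) and 3.55 ± 0.16 RPKM in APPPS1 cortex (SD, n = 6), a log2 difference of -0.26 (limma adjusted p = 0.0157). The Slc14a1 difference was -0.53 without the low-App pair (limma adjusted p = 0.000602), beside -0.52 for Slc7a10. In that fit Slc2a1 was called (0.46, limma adjusted p = 0.0107), while the Slc16a1 call was lost (-0.205, 0.0605).

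Of 18 genes for potassium buffering, water flow and ion pumps, 1 was higher and 2 were lower (median log2 difference -0.01). Fxyd1, a regulator of the sodium pump that lies 11.4 Mb from Apoe on chromosome 7, averaged 34.4 ± 3.15 RPKM in APPPS1;Apoe-/- cortex (SD, n = 7) and 50.6 ± 2.40 RPKM in APPPS1 cortex (SD, n = 6), a log2 difference of -0.56 (limma adjusted p = 4.52e-05). Lrrc8a, a volume-regulated anion channel subunit, averaged 48.7 ± 1.66 RPKM in APPPS1;Apoe-/- cortex (SD, n = 7) and 41.9 ± 2.11 RPKM in APPPS1 cortex (SD, n = 6), a log2 difference of 0.22 (limma adjusted p = 0.00676). Aqp4, the water channel of astrocyte endfeet, averaged 20.4 ± 2.41 RPKM in APPPS1;Apoe-/- cortex (SD, n = 7) and 24.6 ± 1.96 RPKM in APPPS1 cortex (SD, n = 6), a log2 difference of -0.27 (limma adjusted p = 0.0408). The Aqp4 call was lost without the low-App pair (limma adjusted p = 0.122) and without single libraries except APPPS1;Apoe-/- replicates 3, 4 and 6 and APPPS1 replicate 3, while Fxyd1 was called with alignments as a covariate too (0.00358). The most abundant gene, the sodium pump subunit Atp1b2, averaged 110.0 RPKM in APPPS1;Apoe-/- cortex and 125.7 RPKM in APPPS1 cortex (-0.19, limma adjusted p = 0.0629).

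No other connexin, pannexin, claudin or junction partner was called by limma among 15 tested, although 3 were higher and 3 lower at an unadjusted p under 0.05, and the median log2 difference was -0.02. The most abundant was Cldn11, a claudin of myelin, at 49.3 RPKM in APPPS1;Apoe-/- cortex and 41.9 RPKM in APPPS1 cortex (0.22, limma adjusted p = 0.185). In all 13 libraries Gjb6 and Cldn10 were thus the junction genes that passed the test. Without the low-App pair 1 of the 15 was called lower (5.07% of all tested genes were called). In that fit the Gjb6 call was lost (limma adjusted p = 0.0692).

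Around Aldh1l1, 1 of 19 other folate and one-carbon genes was higher and 1 lower (median log2 difference -0.09). Mthfd2, a mitochondrial folate enzyme, averaged 9.42 ± 0.89 RPKM in APPPS1;Apoe-/- cortex (SD, n = 7) and 5.79 ± 0.47 RPKM in APPPS1 cortex (SD, n = 6), a log2 difference of 0.66 (limma adjusted p = 3.53e-05), and the groups did not overlap. The folate transporter Slc46a1, the most abundant of the list, averaged 13.3 RPKM in APPPS1;Apoe-/- cortex and 13.4 RPKM in APPPS1 cortex (-0.02, limma adjusted p = 0.884).

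Of 38 other astrocyte identity genes 8 were higher and 2 lower, with a median log2 difference of 0.06. Leaving out the low-App pair, 4 were called higher and 0 lower (5.07% of all tested genes), and with depth as a covariate 0 were called (1.51%). Cbs, an enzyme of cysteine synthesis, averaged 15.2 ± 0.97 RPKM in APPPS1;Apoe-/- cortex (SD, n = 7) and 11.3 ± 1.34 RPKM in APPPS1 cortex (SD, n = 6), a log2 difference of 0.42 (limma adjusted p = 0.00205). Etnppl, a phospho-lyase of phosphoethanolamine, averaged 11.6 ± 1.80 RPKM in APPPS1;Apoe-/- cortex (SD, n = 7) and 6.92 ± 1.77 RPKM in APPPS1 cortex (SD, n = 6), a log2 difference of 0.72 (limma adjusted p = 0.00483). The secreted glycoprotein gene Mfge8 (0.28, limma adjusted p = 0.00659), which lies 59.4 Mb from Apoe on chromosome 7, was higher too. So was the actin-binding protein gene Fam107a (0.42, limma adjusted p = 0.0126), whose call was lost without the low-App pair (0.0533). Clu, a secreted apolipoprotein and the most abundant gene of the list, averaged 998.7 RPKM in APPPS1;Apoe-/- cortex and 1015 RPKM in APPPS1 cortex (-0.02, limma adjusted p = 0.846). Of the 18 reactive astrocyte genes 10 were lower, 1 was higher and 7 did not pass the test, with a median log2 difference of -0.49. Without the low-App pair 6 were lower and 1 higher (median -0.38), and with depth as a covariate 1 was lower (median -0.45). Among them Serpina3n, a secreted protease inhibitor, averaged 12 ± 1.73 RPKM in APPPS1;Apoe-/- cortex (SD, n = 7) and 21.5 ± 4.56 RPKM in APPPS1 cortex (SD, n = 6), a log2 difference of -0.80 (limma adjusted p = 0.00091). Cd44, a hyaluronan receptor (-0.56, limma adjusted p = 0.00564), and Aspg, an asparaginase (-0.54, 0.0082), were lower as well. Of the 7 that did not pass, Lcn2, named after its value was seen, had the largest difference, and it was upward (1.22, limma adjusted p = 0.0611). The 1 higher gene, Fkbp5 (0.48, limma adjusted p = 0.00703), is best known as a target of the glucocorticoid receptor.

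**Figure D4:**
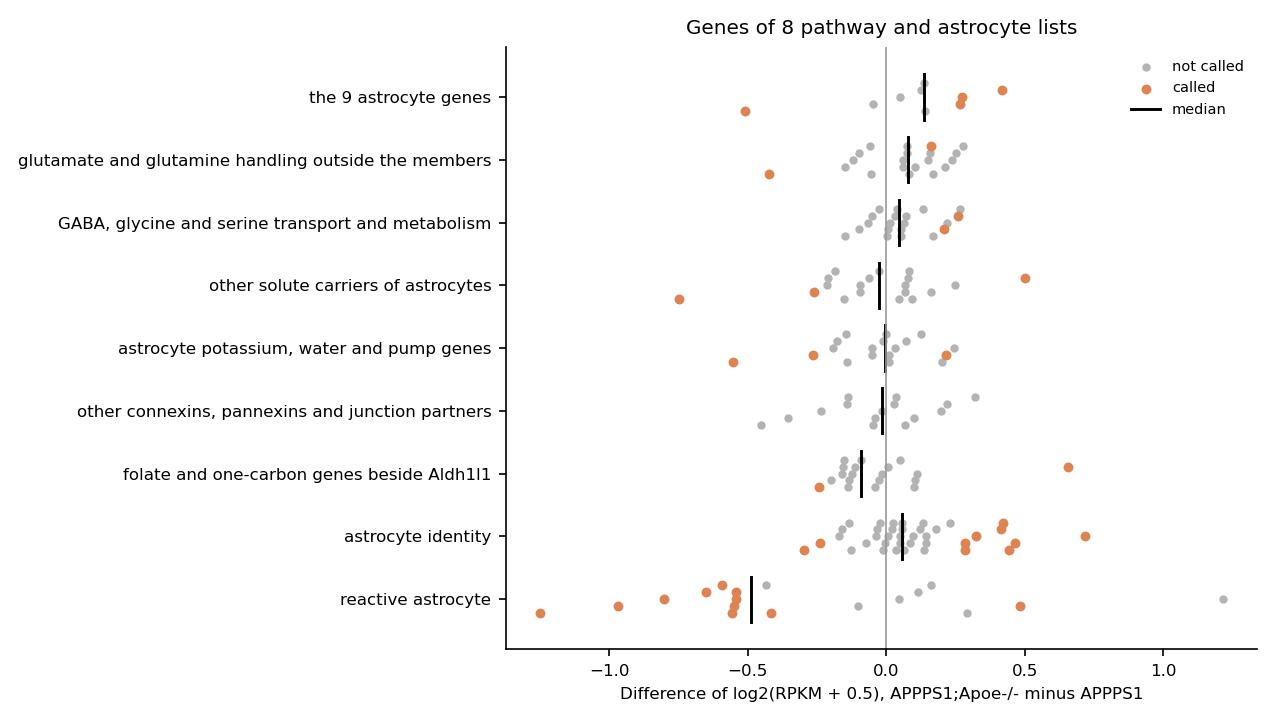
Log2 difference, APPPS1;Apoe-/- minus APPPS1 (horizontal axis), of the 9 genes (top row) and of the tested genes of 8 lists, 1 point per gene, orange where called at an adjusted p under 0.05, with a black bar at the median and points spread vertically for legibility. The 9 genes have a median of 0.14 with Slc7a10 far to the left, while the reactive astrocyte list has a median of -0.49.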

How the data were processed

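The authors deposited 1 table of RPKM values per gene for 13 cortex libraries, with a count of alignments per library. Libraries were made from Trizol RNA with the Clontech SMARTer kit, per the labels' protocols. Partek and the mm10 build are named per the submitters' processing notes, while the aligner, counting rule, annotation and strand use were not given in the sources used here. Such values divide by gene length and mapped reads, so a rise of abundant genes lowers all others slightly, and it hides the counting error of the reads.

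The members and lists were chosen with earlier results of these data known. Genes averaging 0.5 RPKM or more (13343) entered the fit as log2(RPKM + 0.5) with limma 3.58.1 in R 4.3.3 (lmFit, eBayes with a mean-variance trend, genotype the only term, two-sided, Benjamini-Hochberg over all of them). The code was tested on simulated data. Replicate numbers follow the order of the deposited samples and pair nothing. The labels say nothing of the origin of the libraries beyond the count of mice in the design. The p-values set the difference between genotypes against the spread between these libraries within a genotype.

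The text names every member, Apoe, from each list the called genes of smallest adjusted p, at most 4, the gene of each list with the highest mean, the called genes within 2 Mb of Slc7a10, and the 3 genes most correlated with each called member. Some genes that this rule names are not reported here. Gene positions are from GENCODE release M21 on GRCm38, the assembly of mm10, which placed 20372 of 20971 genes. Pc was matched through its synonym Pcx, and Panx3 was not used. Promoter windows are from RefSeq on GRCm38.p6, where 9 of 9 members matched, with 10 windows. Other pseudocounts, filters, scalings, variance models, array weights and leaving out each library were tried. Fits without the 2 low-App libraries, with alignments as a covariate, with female libraries alone (by Xist and Ddx3y) and centred on 12 astrocyte markers were chosen after seeing the data. The rest was done in Python 3.11.15 (numpy 2.4.6, pandas 2.3.3, matplotlib 3.10.9 and scipy 1.17.1).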

Additional observations from a re-analysis of the deposited data

How the results depend on the processing

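The same 4 members were called in each of the 13 fits that left out 1 library, and under 7 of the 8 other planned settings. The share of all genes called in each of these fits is not reported here. Without a filter on low values Gjb6 was not called. Of the settings chosen after seeing the data, alignments as a covariate called 1 member (Slc7a10), alone and also without both low-App libraries, where 1.51% and 2.11% of all genes were called. Without the low-App libraries alone Glul, Slc7a10 and Cldn10 were called (5.07% of all genes). In the 5 female libraries of each genotype Slc7a10, Gjb6 and Cldn10 were called (3.59%), and Glul had 0.26 (limma adjusted p = 0.0531). The covariate is tied to genotype, and the SE of Glul was 0.055 in all libraries and 0.074 with the covariate. For Gjb6 the log2 difference was 0.42 (SE 0.103) in all libraries and 0.26 (SE 0.121) with the covariate. It was 0.32 (SE 0.094) without the low-App libraries. The cause of the lost calls was not tested. Of the 167 tested list genes 33 were called in all libraries (8.23% of all genes). The number was 20 without the low-App libraries, 3 with the covariate, 5 with both and 21 in female libraries, against the shares of all genes given above. It was 22 to 38 with single libraries left out. The number of called neighbours of Slc7a10, 5 in all libraries, was 1 with the covariate, 1 with both, 3 in female libraries, 3 after centring on astrocyte markers, and 3 to 6 with single libraries left out. It was 3 without APPPS1;Apoe-/- replicate 3, APPPS1 replicate 1 or APPPS1 replicate 6.

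Log2 differences that turned sign were near 0 and never called. Gad1 was -0.026 without the low-App libraries, -0.033 with the covariate added, -0.001 in female libraries and -0.007 to 0.1 with single libraries left out, below 0 without APPPS1;Apoe-/- replicate 2 (-0.003) or APPPS1 replicate 4. Slc46a1 was 0.010 after median centring, 0.023 in female libraries, 0.003 after centring on astrocyte markers and -0.038 to 0.006 with single libraries left out, above 0 without APPPS1;Apoe-/- replicate 1 (0.003) or APPPS1 replicate 5. Clu was 0.005 after median centring, 0.025 with the covariate, 0.039 with the low-App libraries left out too and -0.052 to 0.013 with single libraries left out, above 0 without APPPS1 replicate 3.

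A two-sided exact permutation test of each member over all 1716 assignments of the 13 libraries gave unadjusted p = 0.00117 for Glul, Slc7a10 and Cldn10, 0.00641 for Gjb6, 0.039 for Slc1a3, 0.0455 for Gja1 and 0.0519 for Slc1a2. The same test gave 0.476 for Aldh1l1 and 0.54 for Slc6a11. For Apoe it gave 0.000583, the lowest value that these assignments allow. The planned adjustment over the members alone was not made. No paired analysis was possible because the labels give no replicate numbers shared between the groups.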

Other observations

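The other called astrocyte identity genes, named after their values were seen, were F3 (log2 difference 0.28, limma adjusted p = 0.034), Il33 (0.33, 0.0233), Htra1 (0.46, 0.0402) and Ppp1r3g (0.44, 0.043), which were higher in APPPS1;Apoe-/- cortex. Htra1 lies 111.3 Mb from Apoe on chromosome 7. The transcription factors Sox9 (-0.24, limma adjusted p = 0.0342) and Sox2 (-0.30, 0.0342) were lower in APPPS1;Apoe-/- cortex, while Aldh1l1 and Slc6a11 did not pass the test. Without the low-App pair both Sox calls were lost. In that fit 0 of the 38 identity genes were called lower and 4 higher, among them Cbs, Etnppl and Mfge8. Most of F3, Il33, Htra1 and Ppp1r3g therefore lost their calls too. With alignments as a covariate 0 of the 38 were called.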
